A study of Mus musculus with 11 samples.

Results

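The miR-322 and miR-503 cluster is a group of microRNA genes on the mouse X chromosome, and its members were followed in pregnant mammary glands of 3 mouse strains and in C3(1)/Tag mammary tumors. Members were taken by name from the array, as every mouse spot of the deposited log2 table named for miR-322, miR-351, miR-424, miR-450, miR-503 or miR-542 with any letter or arm. This gave 6 of the 334 mouse miRNAs, each printed in 4 spots: mmu-miR-351, mmu-miR-424, mmu-miR-450, mmu-miR-450b, mmu-miR-503 and mmu-miR-542-5p. No spot was described as mmu-miR-322, but the probe described as mmu-miR-424, which another column calls mir-322, was complementary over 22 bases to the sequence that RefSeq now calls mmu-miR-322-5p, and the same molecule is meant by both names here.

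Total RNA was labeled with the green dye Hy3 and hybridized to 11 custom arrays. These held 2 FVB glands, 3 Balbc (Balb/C) glands and 3 FVB129B6 glands, all normal tissue from females late in pregnancy, and 3 primary mammary tumors of C3(1)/Tag females of the FVB strain (C3TAg in the labels). C3(1)/Tag mice carry the SV40 large T and small t antigens behind regulatory DNA of a rat prostate gene, and the transgene is not limited to the mammary gland. A pregnant gland still holds fat, blood, stroma and, depending on dissection, muscle, and a tumor holds its own stroma, so a level is that of the whole piece.

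miRNAs pair with messenger RNAs mainly through the seed, the bases near their 5′ end, and lower the output of the messages they bind. miR-322, called miR-424 in humans, and miR-503 belong to the miR-15/16 group, whose members restrain cell cycle and survival genes, and in muscle precursors they are induced on differentiation. In the mammary gland, mice without miR-322 and miR-503 regress the gland more slowly after weaning, and the pair responds to TGF-β. No weaning or involution stage was sampled on these arrays, so the values below are those of the gland before birth and of 1 tumor model.

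The mature sequences show how the cluster divides by seed. The 6 members and 7 seed relatives, 13 miRNAs in all, were matched from their probes to RefSeq mature sequences on GRCm38.p6. Capitals mark the seed, bases 2 to 8 from the 5′ end. The first set shares the miR-15/16 seed, and miR-503-5p differs from it by the change A8G in the last seed base, counted against miR-322-5p.
mmu-miR-322-5p: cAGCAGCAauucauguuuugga
mmu-miR-497a-5p: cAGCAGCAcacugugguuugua
mmu-miR-16-5p: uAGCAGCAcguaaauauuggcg
mmu-miR-503-5p: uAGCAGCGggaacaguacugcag
The second set is miR-351-5p with its seed relative miR-125a-5p, a family known for roles in blood cell and epithelial differentiation.
mmu-miR-351-5p: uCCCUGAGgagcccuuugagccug
mmu-miR-125a-5p: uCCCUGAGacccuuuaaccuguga
The remaining members share their seeds with none of the other miRNAs among these 13. Between miR-450a-5p and miR-450b-5p, 7 of 22 bases differ, among them G7A and A8G in the seed.
mmu-miR-450a-5p: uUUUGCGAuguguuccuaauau
mmu-miR-450b-5p: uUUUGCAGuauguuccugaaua
mmu-miR-542-5p: cUCGGGGAucaucaugucacga

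The members lie on the minus strand within 6284 bases, from chrX:53054306-53054327 for miR-322-5p to chrX:53048044-53048065 for miR-450b-5p on GRCm38.p6. In the direction of transcription, miR-503-5p starts 278 bases after miR-322-5p and miR-351-5p starts 989 bases after it. All 3 lie inside the gene of the long noncoding RNA C430049B03Rik, and the other members lie outside it. miR-542-5p follows at 4853 bases, the 2 copies of miR-450a-5p at 5967 and 6100 bases, and miR-450b-5p at 6262 bases. RefSeq lists 13 distinct mature sequences from the 7 genes, and the array measured 6 of them, all from the 5′ arm. The probe for mmu-miR-450 cannot separate the 2 gene copies, whose mature sequences are identical.

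**Figure D1:**
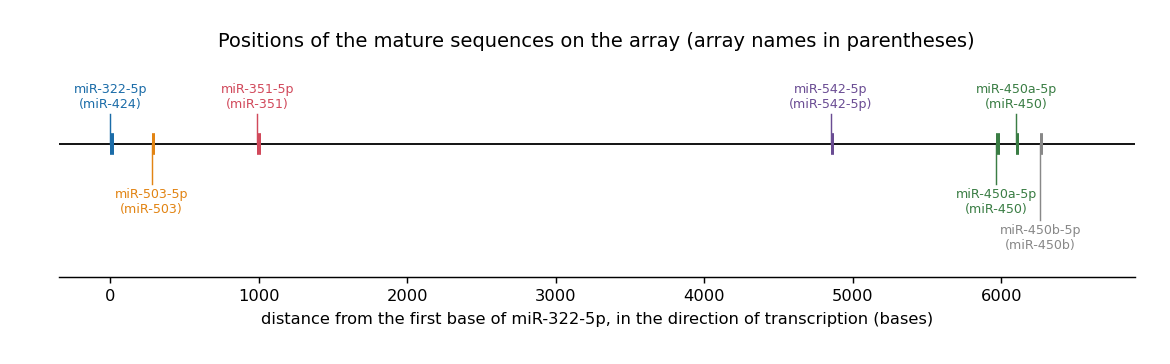
Positions of the 7 mature sequences, drawn as bars at their distance in bases from the first base of miR-322-5p, with the array's names in parentheses. miR-322-5p, miR-503-5p and miR-351-5p lie within 1 group at the left, and the miR-542 and miR-450 sequences lie together at the right.

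The arrays differed in how much they could detect. The 8 gland arrays shared 1 slide and 1 scan, whereas those of the 3 tumors were on a separate slide, read with another version of the scanner software, so tissue and slide cannot be told apart. A miRNA was taken as well above background on an array where the scanner software called at least 50% of its spots so. By this measure 209 and 229 of the 334 miRNAs were detected on the FVB arrays and between 246 and 262 on the other gland arrays, but 38, 15 and 64 were detected on the tumor arrays. A level below is the log2 green intensity after subtraction of the array's median over its 1336 mouse spots, with the spots of a miRNA averaged, so that 0 is the median of the array. Levels are compared between arrays and not between miRNAs, since probes differ in brightness. The number of arrays limits the precision. The labels do not state outright which gland arrays came from separate animals. Their titles may name different mice, but those of 2 Balbc arrays may name 2 glands of 1 mouse, so the spread between arrays may in part be technical.

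In the glands, 5 of the 6 members were well above background on all 8 arrays, in all 4 spots. mmu-miR-450b was detected on 1 of the 8 arrays, FVB129B6 gland 2, where 2 of 4 spots passed. None of the 6 was detected on any tumor array. The 5 detected members entered the fit of strains together with 256 other miRNAs, 261 in all. The F-test of limma for any difference among strains, adjusted over the 261 by the Benjamini-Hochberg method, called 1 of the 5 members, mmu-miR-351, at a threshold of 0.05, against 46.0% of all tested miRNAs. The median range of strain means after median scaling was 0.34 (log2) for the 5 members and 0.82 for all 261. Without any normalization the members' ranges ran from 0.65 (mmu-miR-542-5p) to 1.42 (mmu-miR-450), beside a median of 1.17 for all 261.

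**Figure D2:**
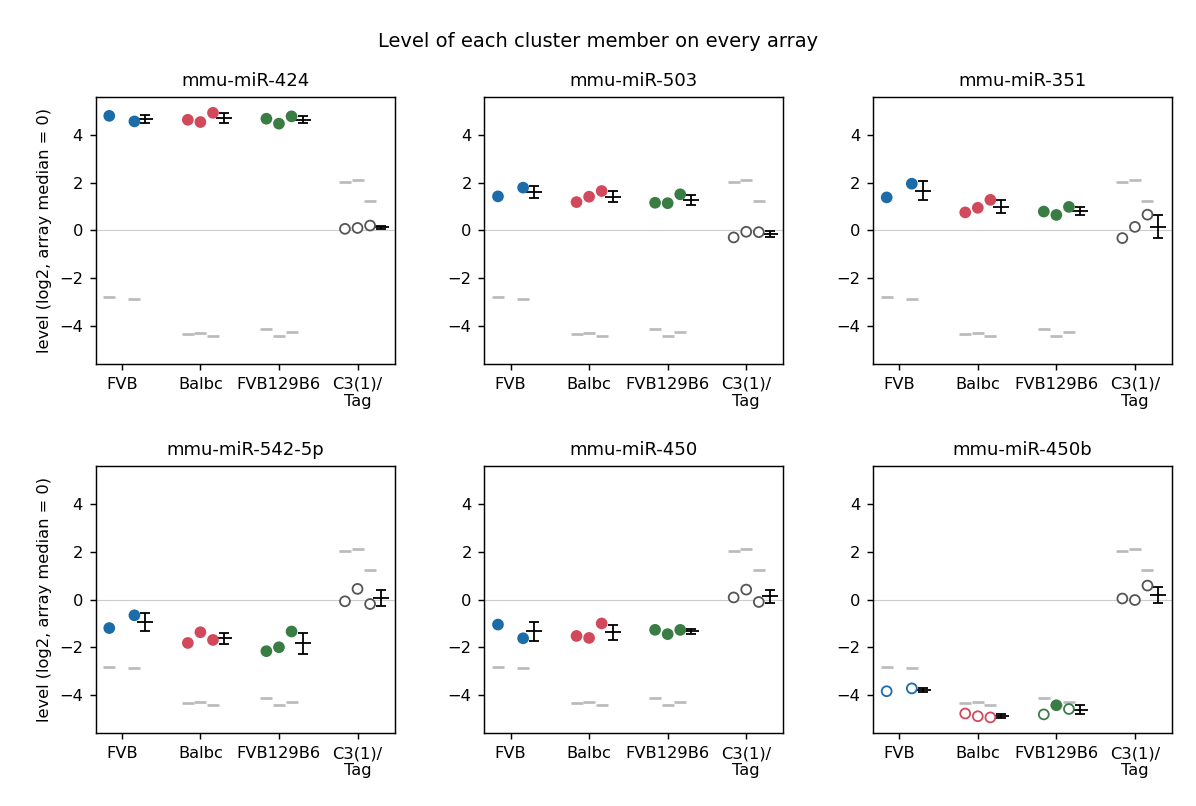
Level of each member (log2, array median at 0) on every array, by group. Filled points are well above background and open points are not, black bars give the group mean with its SD, and gray ticks mark the lowest level called well above background on the same array. Tumor points lie below their ticks in every panel, and mmu-miR-424 stays between 4.47 and 4.93 on all 8 gland arrays.

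mmu-miR-424, the miR-322-5p of current naming, had the smallest range of the members over the gland arrays after median scaling. It measured 4.80 and 4.57 on the FVB arrays, 4.63, 4.54 and 4.93 on the Balbc arrays and 4.68, 4.47 and 4.78 on the FVB129B6 arrays. The 3 groups overlapped fully. Strain means were 4.68 ± 0.16 (SD, n = 2) in FVB, 4.70 ± 0.20 (SD, n = 3) in Balbc and 4.64 ± 0.16 (SD, n = 3) in FVB129B6 glands, and the F-test gave an adjusted p of 0.955. Over the 8 arrays its range was 0.45 (log2), and 6 of the 261 tested miRNAs had a smaller one, against a median range of 1.33. The 4 spots on 1 array had a median SD of 0.06. The size of the strain differences depended on the scaling, though the F-test result was the same, not called, in 21 of 23 alternatives. Relative to the median of all tested miRNAs, mmu-miR-424 stood 0.50 higher in Balbc and 0.35 higher in FVB129B6 than in FVB glands, with 0.21 to 0.88 and 0.12 to 0.71 under 6 other scalings and background settings. Its strain means spanned 0.45 with the 75th percentile and 0.48 with scaling on the miRNAs detected on all arrays. In the ratio of green to red, its Balbc and FVB129B6 differences from FVB were 0.18 and 0.13, and the labels do not say what the red channel held. Without any normalization the FVB glands were lower and the strain means spanned 1.37 (adjusted p 0.0033), and with a normexp background correction they spanned 0.79 (adjusted p 0.024).

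mmu-miR-503, encoded next to miR-322 and a repressor of cell cycle genes, measured 1.43 and 1.79 in FVB, 1.19, 1.41 and 1.65 in Balbc and 1.16, 1.14 and 1.51 in FVB129B6 glands. The groups overlapped, and the strain means of 1.61 ± 0.26 (SD, n = 2), 1.42 ± 0.23 (SD, n = 3) and 1.27 ± 0.21 (SD, n = 3) did not pass the F-test (adjusted p 0.434). mmu-miR-450, the miR-450a-5p made from 2 gene copies, measured -1.04 and -1.62 in FVB, -1.52, -1.60 and -0.99 in Balbc and -1.26, -1.44 and -1.26 in FVB129B6 glands. Its groups overlapped as well, its strain means differed by at most 0.05 after median scaling, and the F-test gave an adjusted p of 0.978. The range of mmu-miR-450 was 0.39 with the 75th percentile and 0.53 with scaling on the miRNAs detected on all arrays, neither called, and relative to the median of all miRNAs it stood 0.44 higher in Balbc and 0.40 higher in FVB129B6 than in FVB glands after median scaling, but lower by 0.21 and 0.23 with normexp. Without any normalization, both strain ranges passed the test, at 1.16 for mmu-miR-503 and 1.42 for mmu-miR-450.

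mmu-miR-351, the member with the miR-125 seed, was highest in FVB glands after scaling, and lowest there without any normalization. FVB arrays measured 1.38 and 1.96, with 0.76, 0.95 and 1.28 on the Balbc arrays and 0.79, 0.65 and 0.99 on the FVB129B6 arrays. Both FVB arrays lay above all 6 others, while the Balbc and FVB129B6 arrays overlapped. The typical miRNA was also lower than in FVB glands, with median differences of -0.48 in Balbc and -0.39 in FVB129B6 glands. The share of all 261 tested miRNAs whose FVB arrays stood apart is not given here. For mmu-miR-351 strain means were 1.67 ± 0.41 (SD, n = 2), 1.00 ± 0.27 (SD, n = 3) and 0.81 ± 0.17 (SD, n = 3), with a limma F-test adjusted p of 0.048. This F-test call was lost in 17 of 23 alternatives, with adjusted p-values from 0.032 to 0.688 over the 23. Among the 17 were the deposited log2 table and outlier spots kept, which are nearly the same setting. Relative to FVB glands the level was lower by 0.86 ± 0.24 (SE) on the log2 scale in FVB129B6 glands, a 1.82-fold difference with an adjusted p of 0.025. This call was lost in 8 of 23 alternatives and the sign turned in 1, without normalization. Relative to FVB, the Balbc difference of -0.68 ± 0.24 (SE) did not pass the test (adjusted p 0.063).

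mmu-miR-542-5p, a member further along the locus, had a like order of strains after median scaling, and without any normalization its level was lowest in FVB glands. It measured -1.19 and -0.65 in FVB, -1.81, -1.36 and -1.69 in Balbc and -2.16, -1.99 and -1.33 in FVB129B6 glands. The FVB arrays again lay above the 6 others, which overlapped each other, with -1.19 and -1.33 as the closest pair. Here too the share of all tested miRNAs with such a gap is not given. The F-test of mmu-miR-542-5p fell short of the threshold (adjusted p 0.084). The FVB129B6 mean was lower than the FVB mean by 0.91 ± 0.30 (SE) on the log2 scale, a 1.87-fold difference with a limma adjusted p of 0.044, and the Balbc difference was -0.70 ± 0.30 (SE), adjusted p 0.101. The FVB129B6 call was lost in 9 of 23 alternatives and the sign turned in 1. The 4 spots of this dim probe scattered more within an array, with a median SD of 0.27 and a highest of 0.52.

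By pair of strains, 2 of the 5 tested members, mmu-miR-351 and mmu-miR-542-5p, were called lower in FVB129B6 than in FVB glands and none was called higher. Among all 261 miRNAs 39.5% were called in this comparison, and 31.4% were called lower. None of the 5 was called between Balbc and FVB glands, where 37.9% of all miRNAs were called. There 2 members had an unadjusted limma p under 0.05, a threshold that at least 37.9% of all miRNAs also passed. None was called between Balbc and FVB129B6 glands either, where 3.45% of all were called. No member had an unadjusted limma p under 0.05 there, and at least 3.45% of all miRNAs did. The full shares at the unadjusted threshold are not given here. The median member difference between FVB129B6 and FVB glands was -0.34, beside a median of -0.39 over all tested miRNAs.

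**Figure D3:**
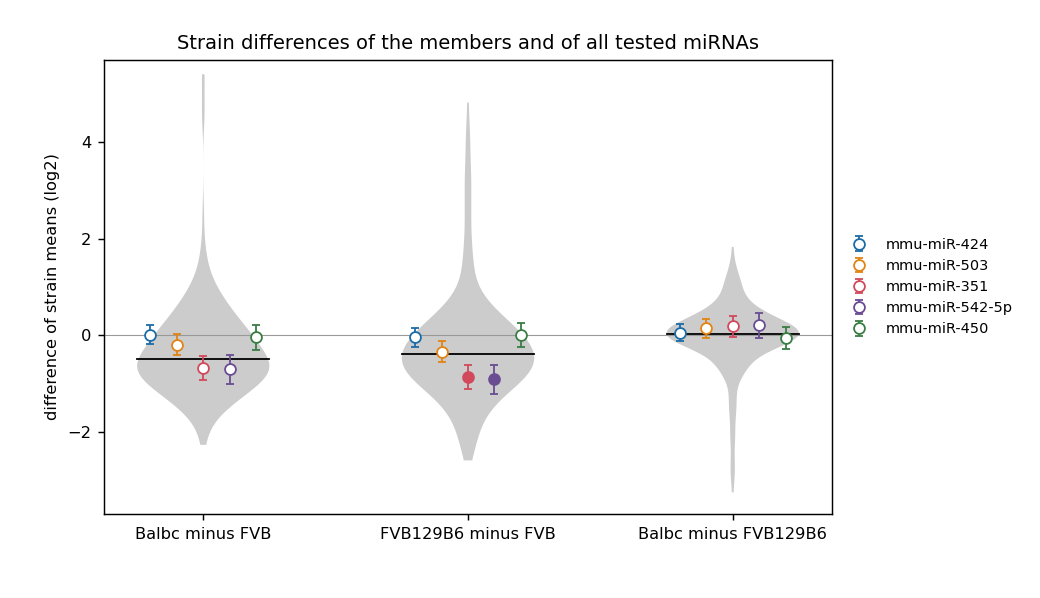
Difference of strain means (log2) for the 5 tested members, with SE bars, over the distribution of all 261 tested miRNAs in gray (black line, median). Filled points passed an adjusted p of 0.05. mmu-miR-351 and mmu-miR-542-5p lie below the median in both comparisons with FVB (their differences are above 0 without normalization), while mmu-miR-424 and mmu-miR-450 lie near 0 in all 3.

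Both calls rested on the scaling and on single arrays. Because the typical miRNA was itself 0.39 lower in FVB129B6 than in FVB glands, mmu-miR-351 was lower by 0.47 relative to that median and mmu-miR-542-5p by 0.52. Under 6 other scalings and background settings the median of all miRNAs lay between -0.09 and 1.02. Both members stayed below it, mmu-miR-351 by -0.64 to -0.13 and mmu-miR-542-5p by -0.86 to -0.33. A scaling that shifts a whole array leaves these distances unchanged. Only quantile normalization, normexp and the ratio of green to red could have changed them. The sign of the difference itself turned without any normalization, to 0.55 and 0.51. With normexp the difference of mmu-miR-351 was -0.22 and not called, while that of mmu-miR-542-5p was -0.55 and called. mmu-miR-351 was no longer called without FVB gland 2 (difference -0.57), FVB129B6 gland 1 (-0.85) or FVB129B6 gland 2 (-0.78), and mmu-miR-542-5p was no longer called without FVB gland 2 (-0.64), FVB129B6 gland 1 (-0.74), FVB129B6 gland 2 (-0.82), Balbc gland 1 or Balbc gland 3 (-0.91 in both). mmu-miR-351 was called lower in Balbc than in FVB glands without FVB gland 1 (-0.96) or Balbc gland 3 (-0.82). The F-test call of mmu-miR-351 was lost without FVB gland 2, where the range was 0.57, without Balbc gland 1 or 2 (0.86 in both) and without FVB129B6 gland 1, 2 or 3 (0.85, 0.78 and 0.95). The F-test called mmu-miR-542-5p without FVB129B6 gland 3 (range 1.15). The 2 FVB arrays also held a slide column of their own, so that slide column and strain cannot be told apart.

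mmu-miR-450b could not be compared. Its spots gave levels of -3.83 and -3.71 in FVB, -4.77, -4.88 and -4.93 in Balbc and -4.80, -4.42 and -4.58 in FVB129B6 glands, and all but FVB129B6 gland 2 were not well above background. The sister probe for mmu-miR-450 was well above background on the same 8 arrays.

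Markers of other cell types also differed between strains after median scaling. On the list of skeletal muscle miRNAs, 4 of 5 were on the array, all 4 were well above background on every gland array, and all 4 were called higher both in FVB129B6 and in Balbc than in FVB glands. FVB arrays had mean levels of 0.68 and 2.90 over this list, whereas Balbc arrays had 6.23 to 7.10 and FVB129B6 arrays 5.69 to 5.88. The red blood cell list (miR-451, miR-144 and miR-486) ran from 4.99 to 5.11 in FVB and from 2.75 to 3.43 in FVB129B6 glands, with 3 of 3 called lower in FVB129B6, and from 3.66 to 4.62 in Balbc glands, with miR-451 called lower. Of the epithelial list, including the miR-200 family, 0 of 7 were called between FVB129B6 and FVB glands and 2 of 7, miR-200c and miR-203, were called lower in Balbc than in FVB glands. Of the lists for stroma and myoepithelium (5 on the array), white blood cells (4) and endothelium (1), 0 were called in either comparison, with limma adjusted p-values. The part of these tissues in the values of mmu-miR-351 and mmu-miR-542-5p was not tested. In bulk tissue, fewer cells of a type and less RNA per cell cannot be told apart.

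Array by array, 2 pairs of members had close profiles. After each strain's mean was removed, mmu-miR-351 and mmu-miR-503 moved together over the 8 arrays (Pearson r 0.95), and so did mmu-miR-424 and mmu-miR-450 (r 0.91). For mmu-miR-542-5p, r was 0.75 with mmu-miR-503 and 0.60 with mmu-miR-351, but the 6 other scalings and background settings gave -0.01 to 0.60 and -0.08 to 0.36. Between the pairs r was 0.30 between mmu-miR-351 and mmu-miR-424 and 0.05 between mmu-miR-351 and mmu-miR-450, values that ran from -0.38 to 0.99 and from -0.28 to 0.86 under those settings, so the pairs were not separate under every one. mmu-miR-424 and mmu-miR-503, 278 bases apart, had an r of 0.38, whereas mmu-miR-424 and mmu-miR-450 lie 5967 bases or more apart. Under the same 6 settings the within-strain r stayed between 0.83 and 0.95 for mmu-miR-351 with mmu-miR-503 and between 0.82 and 0.98 for mmu-miR-424 with mmu-miR-450, but ran from -0.13 to 0.91 for mmu-miR-424 with mmu-miR-503. These are descriptions of 8 arrays that share a slide, and the scaling of an array moves all its values together. How often pairs of other miRNAs reach such an r within strains is not given here.

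**Figure D4:**
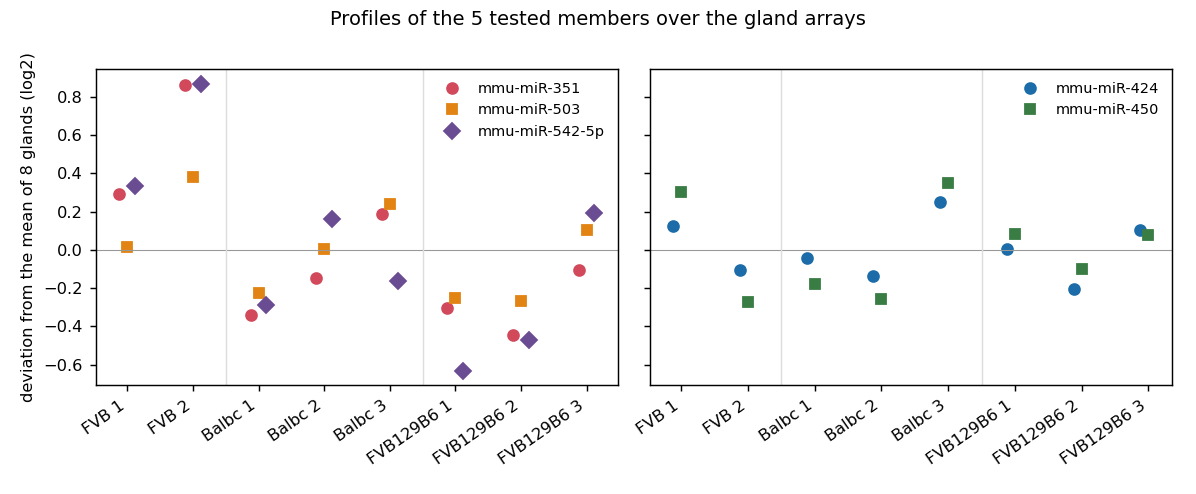
Deviation of each tested member from its own mean over the 8 gland arrays (log2), array by array. At left, mmu-miR-351, mmu-miR-503 and mmu-miR-542-5p were all at their highest on FVB gland 2. At right, mmu-miR-424 and mmu-miR-450 were both at their highest on Balbc gland 3.

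The closest profiles among all 260 other tested miRNAs, by Pearson r of the levels over the 8 gland arrays, included members in several cases. mmu-miR-450 was the nearest to mmu-miR-424 and the reverse (r 0.88), followed for both by miR-100 (r 0.81 and 0.82) and miR-320 (r 0.78 and 0.77). Nearest to mmu-miR-503 were mmu-miR-351 (r 0.89), miR-301 (r 0.88) and miR-154 (r 0.87). mmu-miR-351 was closest to miR-222 (r 0.96), miR-485-5p (r 0.95) and let-7b (r 0.95), and mmu-miR-503 stood at place 29 on its list. mmu-miR-542-5p was closest to miR-92 (r 0.95), miR-500 (r 0.94) and miR-185 (r 0.90). These values hold the strain differences too, with the FVB arrays apart, and they moved with the scaling. Under the 6 other settings r of the levels ran from -0.51 to 0.98 for mmu-miR-424 with mmu-miR-450 and from 0.03 to 0.95 for mmu-miR-351 with mmu-miR-503, and the order of the closest profiles is that of median scaling alone.

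Seed relatives encoded elsewhere were set beside the members. The 5 relatives with the miR-15/16 seed, miR-15a, miR-15b, miR-16, miR-195 and miR-497, restrain the cell cycle, and each of the 8 gland arrays detected all 5. The limma F-test called 0 of these 5 (adjusted p 0.124 to 0.703), against 46.0% of all 261 tested miRNAs. Its unadjusted p was under 0.05 for 0 of the 5, a threshold that at least 46.0% of the 261 passed. miR-16, for example, measured 7.75 and 7.53 in FVB, 7.30, 8.14 and 7.38 in Balbc and 6.93, 6.93 and 7.22 in FVB129B6 glands. Its FVB129B6 arrays lay below all FVB and all Balbc arrays, but the F-test gave an adjusted p of 0.124, and the Balbc comparison with FVB129B6 had an unadjusted p of 0.048 and an adjusted p of 0.233. miR-195 measured 6.18 and 6.36 in FVB, 6.66, 6.54 and 6.91 in Balbc and 6.61, 6.33 and 6.76 in FVB129B6 glands. Its FVB arrays lay below all Balbc arrays and overlapped FVB129B6. The Balbc difference from FVB was 0.43 ± 0.20 (SE) with a limma adjusted p of 0.119, and it was 0.86 with the 75th percentile, 1.19 with normexp and 1.78 without normalization, or 0.91 above the median of all miRNAs (0.70 to 1.28 under the 6 other settings). With the miR-351 seed, miR-125a measured 5.55 and 6.05 in FVB, 4.55, 4.32 and 4.67 in Balbc and 4.18, 4.48 and 4.49 in FVB129B6 glands. The FVB arrays stood apart from all others, as they did for mmu-miR-351. The share of all 261 miRNAs with such gaps between strains is not given, here or for miR-16 and miR-195. miR-125a was lower in FVB129B6 than in FVB glands by 1.42 ± 0.22 (SE) on the log2 scale (limma adjusted p 0.0036). In Balbc glands it was lower than in FVB glands by 1.29 ± 0.22 (SE) (limma adjusted p 0.0059). Without any normalization these differences were -0.00 and 0.07, and in the ratio of green to red they were -0.26 and -0.43. Relative to the median of all miRNAs the FVB129B6 difference was -1.03 after median scaling and -1.06 to -0.27 under the 6 other settings. The Balbc difference was -0.80 and -0.97 to -0.37. Here and for miR-195, only quantile normalization, normexp and the ratio of green to red could move these relative values. miR-125b, which carries the same seed, gave -0.39 ± 0.22 (SE) against FVB in FVB129B6 glands and did not pass the test (adjusted p 0.189).

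In the C3(1)/Tag tumors no member could be measured. mmu-miR-424 gave levels of 0.07, 0.11 and 0.21 with 0 of 4 spots well above background on each array, and its mean green intensity was 153.8 to 202.5 there, against 4468 to 17000 on the gland arrays. mmu-miR-503 gave -0.29, -0.05 and -0.07, and mmu-miR-351 gave -0.32, 0.15 and 0.66. The other members, mmu-miR-450, mmu-miR-450b and mmu-miR-542-5p, lay between -0.18 and 0.59. All of these are near the array's median, which on a tumor array is itself not well above background, and the lowest level called well above background there was 2.02, 2.13 and 1.23.

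A fold could be bounded for 1 member. With each tumor array set to the lowest level detected on it, a mean of 1.80, and the glands at a mean of 4.67 over 8 arrays, mmu-miR-424 was at least 7.35-fold lower in tumors after median scaling. The bound did not hold under every scaling. It was 6.05 without tumor 3, 1.32 when arrays were scaled on the miRNAs detected on all of them, and no fold was left with the 75th percentile or quantile normalization. The gland means of mmu-miR-351 and mmu-miR-503 lay under the tumor detection limit, and no fold is given for them or for the dimmer members.

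A limma fit of tumors against glands gives no test of the members, because they entered it through the glands alone and their tumor values are not well above background. Its threshold was passed by 5 of the 5 members and by 90.4% of all 261 miRNAs, 52.5% with tumor values lower and 37.9% with them higher, and neither a change nor a direction is read from these counts. The signs of the 5 differences also moved with the setting, except for mmu-miR-542-5p. That of mmu-miR-424 turned only in the ratio of green to red (0.31). The median of all tested miRNAs moved from -0.83 to between -2.34 and 2.14 under the 6 other scalings and background settings. Few marker miRNAs were detected on these arrays, with 1 to 4 of 7 epithelial, 1 to 3 of 5 stromal and 0 of 3 red blood cell miRNAs well above background, so the labeled tissue could not be checked by its epithelial miRNAs on all 3 arrays. Among the seed relatives, miR-125a was well above background on 2 of 3 tumor arrays and miR-15b, miR-16, miR-497 and miR-125b on 1 of 3, while miR-195 and miR-15a were on none.

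**Figure D5:**
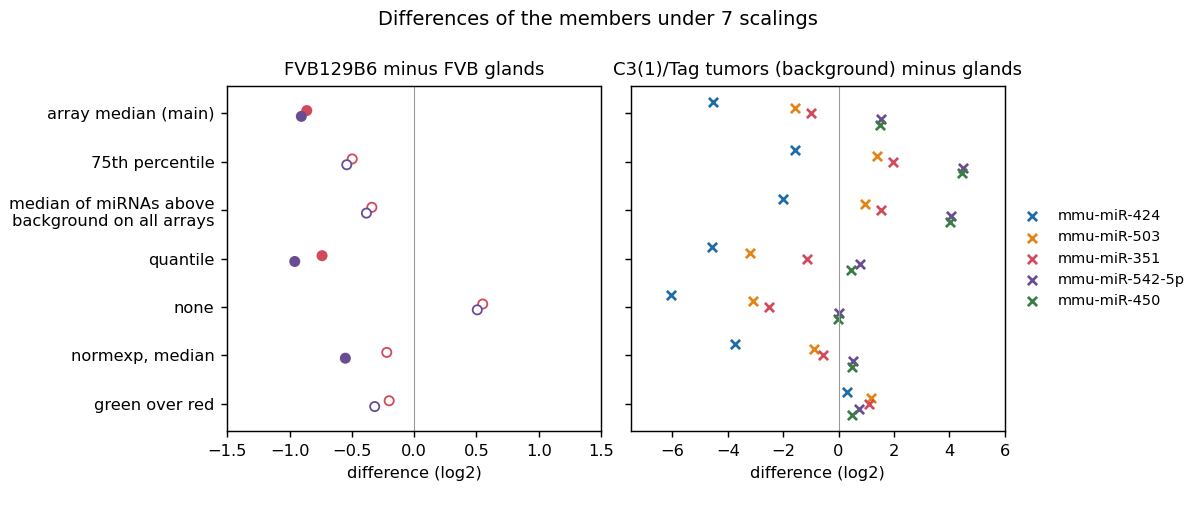
Differences (log2) of the members under 7 ways to scale or correct the arrays, for FVB129B6 minus FVB glands (left, mmu-miR-351 and mmu-miR-542-5p) and for C3(1)/Tag tumors minus the mean of the 3 strains (right, 5 members, crosses, since the tumor values are not well above background and give no test). Filled points at left passed an adjusted p of 0.05. At left, both members stay below 0 except without normalization, and at right mmu-miR-351, mmu-miR-503, mmu-miR-424 and mmu-miR-450 each lie on both sides of 0.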

How the data were processed

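The authors deposited Feature Extraction output for 11 arrays, with green and red spot intensity values after background subtraction and dye normalization, and a table of log2 values that, set against those files, equalled the log2 green intensity plus 1 constant per array, the authors' median normalization. Here green intensities of the 1336 mouse spots of that table were log2 transformed and centered on the array's median, outlier spots were left out, and 4 spots per miRNA were averaged. No spot was saturated. miRNAs entered a fit when at least 50% of spots were well above background on at least 3 arrays. Strains were compared with limma 3.58.1 in R 4.3.3 (lmFit and eBayes) over 8 gland arrays, and tumors with the mean of 3 strain means over 11 arrays, with Benjamini-Hochberg adjustment over all 261 tested miRNAs. Lower bounds set each tumor array at the higher of the miRNA's level and the lowest level detected. The miRNAs named are the members, their seed relatives and, for each tested member, the 3 with the highest Pearson r over the glands. Sequences and positions come from RefSeq (GRCm38.p6), matched by probe. The members and lists were chosen with earlier results of these data known. Alternatives covered scaling, background, filters, single arrays and blocks. The fits were tested on simulated data.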

Additional observations from a re-analysis of the deposited data

Results flagged for a closer look

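The red channel entered none of the levels above. It entered only the ratio of green to red and the ranges over the 6 other settings, which include that ratio. The labels name only the green dye Hy3 for these samples, and what the red channel held is not given in the sources used here. In red, mmu-miR-351, mmu-miR-424, mmu-miR-450, mmu-miR-503 and mmu-miR-542-5p were each well above background on 8 of 8 gland arrays, and mmu-miR-450b was so on 3 of 8. On the tumor arrays none of the 6 members was well above background in red, on 0 of 3 arrays. A median of 292 of the 334 miRNAs passed in red on a gland array and 48 on a tumor array. No group held 4 arrays or more, so no array was checked as an outlier within its group.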

How the results depend on the processing

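Over 27 alternatives, 309 of 373 values for single members kept both sign and call, 38 lost the call, 12 gained one and 14 changed sign. The deposited table and outlier spots kept are nearly the same setting but count as 2 of the 27. The F-test called 1 member, mmu-miR-351, and no member with the 75th percentile, scaling on the miRNAs detected on all arrays, quantile normalization, the deposited table, outlier spots kept, green over red, the slide row as a block, 2 Balbc arrays averaged or all 11 arrays fitted (0 each, beside 29.1%, 31.4%, 29.1%, 44.1%, 44.1%, 23.0%, 44.4%, 39.5% and 34.1% of all miRNAs in this order). With normexp 2 were called (mmu-miR-424 and mmu-miR-542-5p, beside 47.9% of all 261 miRNAs) and without normalization 3 (mmu-miR-424, mmu-miR-450 and mmu-miR-503, beside 63.6% of them), in both cases not mmu-miR-351, and with no filter 2, among them mmu-miR-351 (beside 58.4% of 334). All fits with no filter also take in mmu-miR-450b, which could not be compared. In the F-test, leaving out single arrays gave 0 to 1 (beside 29.8% to 40.1% of all). Between Balbc and FVB glands (0 called), 4 were called without normalization (mmu-miR-351 with the opposite sign, beside 151 of 261, all higher in Balbc, against 15 of 99 higher after median scaling), 2 with normexp (not mmu-miR-351, beside 113 of 261, 46 higher) or no filter (beside 178 of 334) and 1 with detection on every array (beside 45.6%), and 0 to 1 without single arrays (beside 29.6% to 39.3%). Between FVB129B6 and FVB glands (2 called), 0 were called with the 75th percentile, scaling on detected miRNAs or green over red (beside 31.8%, 27.6% and 14.9% of all), 1 with the slide row or all 11 arrays (beside 41.4% and 32.6%), 3 with normexp (not mmu-miR-351, beside 120 of 261, 44 higher), no filter (beside 191 of 334) or no normalization (neither mmu-miR-351 nor mmu-miR-542-5p, beside 179 of 261, 176 higher, against 21 of 103 higher after median scaling), and 0 to 2 without single arrays (beside 27.8% to 43.0%). In the tumor fit, which compares glands with tumor values not well above background and tests no member, 5 passed (90.4% of all). With quantile normalization 2 passed (beside 68.6% of all), without normalization 3 (beside 88.9%) and with no filter 6 (beside 93.1% of 334). With the floor or green over red 4 passed (beside 87.0% and 66.7%). A filter on every array left no member to test. The count between Balbc and FVB129B6 glands was 0 under every alternative run, beside 0% to 6.51% of all miRNAs.

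Signs turned as follows, and the cause was not tested. Without normalization, Balbc minus FVB became 0.68 for mmu-miR-351 and 0.65 for mmu-miR-542-5p, FVB129B6 minus FVB became 0.55 and 0.51, and the tumor difference of mmu-miR-450 became -0.021. The tumor difference of mmu-miR-351 became 1.98 with the 75th percentile, 1.54 with scaling on detected miRNAs, 0.64 with the floor and 1.104 with green over red. That of mmu-miR-503 became 1.40, 0.96, 0.36 and 1.18 in the same order, and that of mmu-miR-424 became 0.31 with green over red. The lower bound for mmu-miR-424 came to 0.957 with the 75th percentile and 0.846 with quantile normalization, which leaves no fold.

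Replicate numbers did not pair the arrays, since 2 of 7 same-numbered pairs had deviations correlated above 0.1 (r -0.28 to 0.42). With the replicate block, 1 member was called by the F-test, 1 between Balbc and FVB glands (mmu-miR-351, -0.79), 2 between FVB129B6 and FVB glands, 0 between Balbc and FVB129B6 glands and 5 in tumors, beside 36.8%, 36.8%, 40.2%, 5.36% and 90.8% of all miRNAs.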
